A study of Mus musculus with 12 samples.

Results

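A set of 50 mouse genes was nearly silent in CD8αα intraepithelial lymphocytes (IEL) of control mice and was expressed in every other library of the series. A gene was kept when its deposited value lay under 1 CPM, a read count scaled to the library's gene total, in all 3 control IEL libraries and at 5 CPM or more in each of the 9 other libraries. Of 26629 genes in the deposited table, 58 met these limits, and 50 remained after 6 predicted genes with Gm numbers and 2 genes with Rik names were left out. The rule used the values of all 12 libraries. The gap between control IEL and the other groups therefore defines the genes, and it is described below with no test.

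IEL are T cells that live in the gut lining. Those with the CD8αα homodimer and an αβ T cell receptor arise from precursors (IELp) that are selected in the thymus by strong receptor signals, leave it, and finish their maturation in the gut. Lymphocytes that circulate through lymph nodes carry CCR7 for entry and S1PR1 for exit, and T cells that settle in a tissue usually lose them. LRF, encoded by Zbtb7a, is a zinc finger transcription factor of T cell development.

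All mice were C57BL/6 with floxed Lrf alleles (lrffl/fl), and the labels give neither age nor sex. Controls lacked Cd4 Cre, and LRF knockouts (KO) carried it. Cd4 Cre is a recombinase driven by regulatory elements of Cd4, which become active in developing thymocytes. Thymic IELp were sorted from both genotypes as TCRβ-positive cells without CD4, CD8α or CD44 and with CD122, H-2Kb, high CD5 and high PD-1. The CD8αα populations were sorted as cells positive for CD45, TCRβ and CD8α and without CD4 and CD8β. They came from the IEL of control mice and from the spleen of KO mice, with 3 libraries in each of the 4 groups and 40000 sorted cells per sample. No control spleen and no KO IEL were analysed here, so for any difference between control IEL and KO spleen cells genotype and tissue cannot be told apart. Whether replicates of a group came from different mice is not in the labels, so p-values cover only the spread among these libraries, and that spread may be technical.

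Each library held between 13432598 and 19947734 counts assigned to genes. Zbtb7a checked the genotype labels of the IELp: it lay between 68.5 and 80.7 CPM in control IELp against 42.0 to 50.8 CPM in KO IELp, lower but not absent. Its values were 101 to 119 CPM in control IEL and 59.1 to 63.4 CPM in KO spleen cells. Those 2 groups also differ in tissue, so this difference does not check the genotype label. The label of the IEL was checked with 14 genes of tissue-resident CD8αα cells such as Itgae and Gzma, whose summed level was 48159 to 49952 CPM in control IEL, 865 to 928 CPM in IELp of both genotypes and 3020.0 to 3113 CPM in KO spleen cells. Gzma and Gzmb carried much of the control IEL sum, at 14064 to 15251 CPM and 14532 to 14996.5 CPM. Of the 14, Cd160 overlapped between control IEL (642 to 730 CPM) and KO spleen cells (663 to 686 CPM). Xcl1 was lower in control IEL (35.4 to 55.0 CPM) than in KO spleen cells (68.9 to 87.3 CPM) and overlapped control IELp (40.7 to 46.2 CPM). Summed over 9 T cell genes, levels were 6216 to 9491 CPM in all libraries. Of these 9, Cd5 was at 0.450 to 1.74 CPM in control IEL against 179 to 232 CPM elsewhere, and Cd2 at 21.3 to 32.1 CPM against 291 to 459 CPM. Epithelial transcripts set control IEL replicate 3 apart. Over 11 gut epithelial markers (without Cdh1 and Epcam, which were left out after their values were seen), it held 129.8 CPM, against 28.7 and 25.8 CPM in control IEL replicates 1 and 2 and at most 11.68 CPM in the other groups. Without control IEL replicate 3 the rule gave 69 genes, against 65 without replicate 2 and 55 without replicate 1. By the rule, leaving out a library can only add genes to the 50. Because RNA was measured in bulk, a lower share of cells that express a gene and less RNA per cell cannot be told apart.

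Under 1 CPM did not mean absent. Of the 150 values of the 50 genes in control IEL, 53 were 0, and counts over the 3 libraries together had a median of 10 and a maximum of 40. Adgrb2, BC106179, Ckap4 and Maged1 had no count in any control IEL library. Taking 3 counts over the group as the floor, Maged1 was at least 284-fold higher in control IELp, at least 1353-fold higher in KO IELp and at least 1155-fold higher in KO spleen cells. A further 8 genes had 1 to 3 counts and 38 had more. Together the 50 genes took 10.1, 9.14 and 13.8 CPM in control IEL 1, 2 and 3, against 2397 to 2490.1 CPM in IELp and 2186 to 2345 CPM in KO spleen cells.

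**Figure D1:**
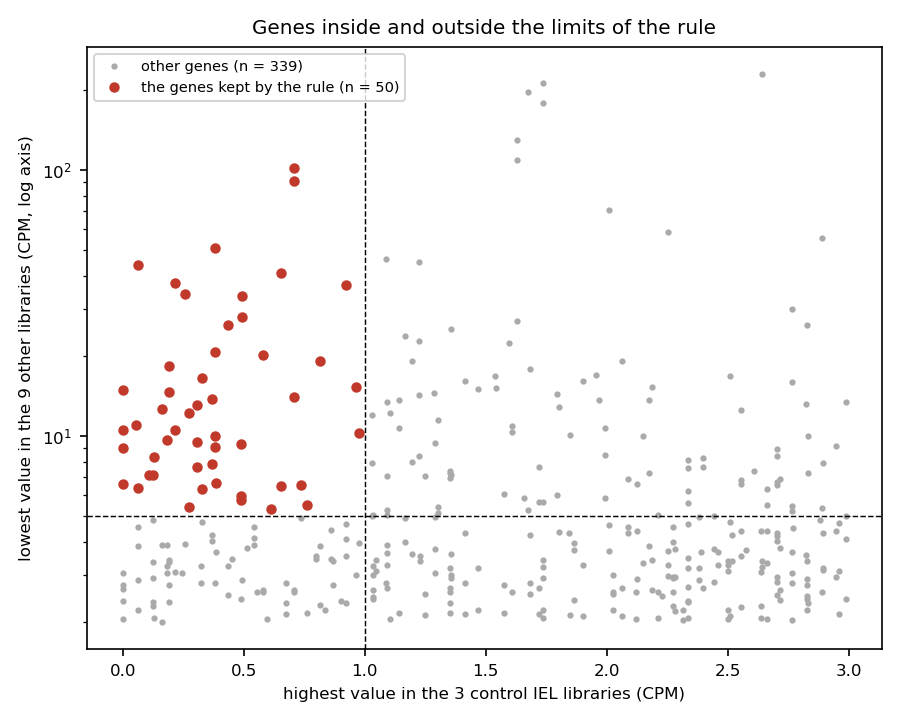
Each point is a gene, with its highest value in the 3 control IEL libraries on the x axis (CPM, shown to 3) and its lowest value in the 9 other libraries on the y axis (CPM, log axis, shown from 2), and dashed lines mark the limits of 1 and 5. The 50 genes kept by the rule (red) stand among 339 others, with no empty band at either limit.

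The limits cut through a continuous range. Just inside them stood Lta (highest control IEL value 0.978 CPM) and Slc37a2 (0.965 CPM), and Raph1 (lowest value elsewhere 5.31 CPM) and Tarsl2 (5.43 CPM). Outside the limit of 1 CPM, 22 genes had highest control IEL values between 1.03 and 1.29 CPM, with Tmem108, Fry, Eid2 and Cnr2 at the upper end (1.29, 1.29, 1.25 and 1.22 CPM) and Cpq, S100a6 and Zdhhc1, named after their values were seen, at the lower (each 1.03 CPM). Just outside the limit of 5 CPM were Mgmt, Armcx4, Spry4 and Ptprf, with lowest values elsewhere of 4.92, 4.86, 4.76 and 4.66 CPM. By the same limits, no gene was off only in control IELp or only in KO IELp. Either would need a gene under 1 CPM in 1 genotype and at least 5 CPM in the other, in cells sorted alike. Off only in KO spleen cells were 2 genes. Those 2, Igha and Rapsn, are named because the count was small, after their values were seen. In the opposite direction, 64 genes reached 5 CPM in all control IEL libraries and stayed under 1 CPM in the 9 others.

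Under 1 CPM in control IEL and at least 5 CPM in all 6 IELp libraries stood 108 genes. Of these, 50 kept at least 5 CPM in every KO spleen library, 7 lay under 1 CPM in all of them and 51 lay between. Another 13 genes were under 1 CPM in KO spleen cells and at least 5 CPM in all IELp libraries.

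**Figure D2:**
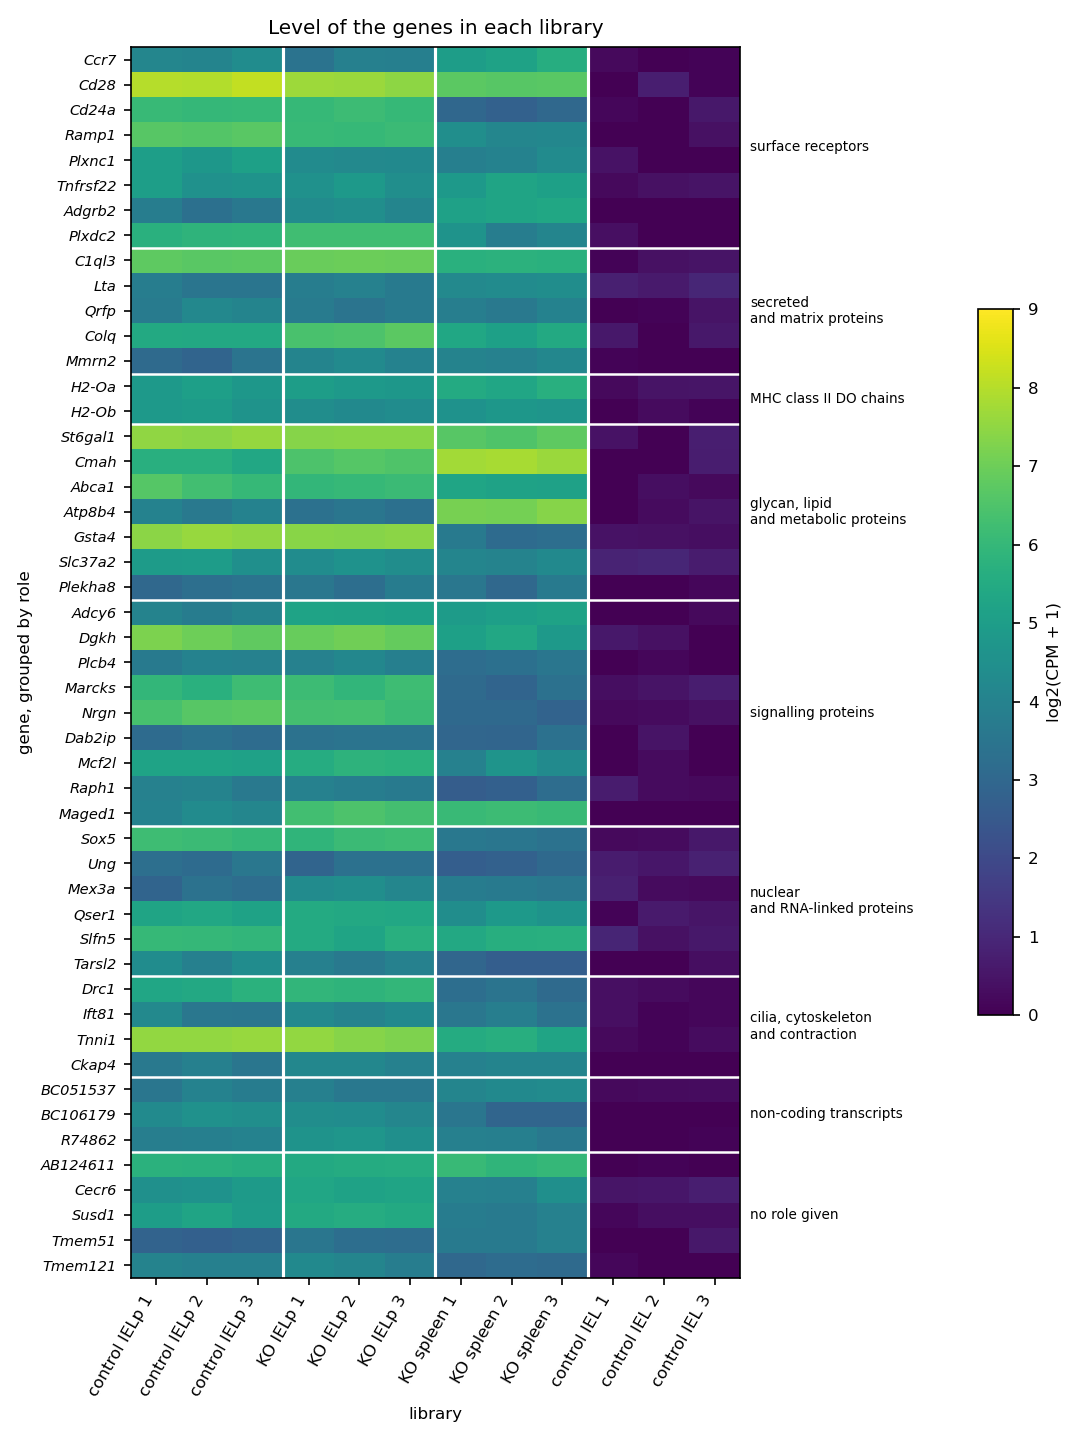
Rows are 49 of the genes grouped by role, columns are the 12 libraries, and colour gives log2(CPM + 1) from 0 to 9. The 3 control IEL columns are dark for all genes by the rule, and the KO spleen columns stand out at Cmah and Atp8b4.

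All 50 genes were matched to the GENCODE mouse annotation, release M21 (mm10), 49 by symbol and Cecr6 through its synonym Tmem121b. They were spread over the genome, with 2 overlapping pairs. BC051537 is an antisense transcript over H2-Oa, and BC106179 lies opposite the start of St6gal1. R74862 overlaps Cd81 on the other strand, and C1ql3 overlaps Gm37811, a predicted gene that met the limits and was left out by name. The strand setting of the counting is not given in the sources used here, so reads of such partners may not be separable. Both chains of one MHC class II protein, H2-Oa and H2-Ob, were in the set and lie 144 kb apart.

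Promoters were read from RefSeq (GRCm38.p6) as windows of 250 bases before to 50 bases after a start, with 38 of the 50 genes matched. The letters of 6 motifs were looked for on both strands. CAGGTG, a core of E protein sites, was in 12 of the 38 genes (31.6%), against 19.7% of 7162 genes at 5 CPM or more in the 9 libraries and 22.6% of all 27025 genes with a window. CCGGAAG, a core of ETS factor sites, was in 2 (5.26%), Mcf2l and Raph1, against 24.3% and 9.93%. CTTTGAT (TCF/LEF) was in Cmah alone, against 2.99% and 4.29%, CCACACCC (KLF) in Mex3a alone, against 4.45% and 4.09%, and TGTGGTT (RUNX) in Mcf2l alone, against 4.41% and 6.09%. GTAAACA (FOXO) was in none of the 38, against 3.02% and 4.05%. The median GC content of the 38 genes was 59.1%, against 61% in the expressed genes and 52.8% in all, and the median number of CG pairs per window was 15.5, against 22 and 7. Genes with several starts had several windows, and a match says only that the letters are there. A window each of Cmah and Ramp1, cut to the 250 bases before the start, is shown as an example. Cmah passed the test upward and Ramp1 downward in both comparisons below. So did Adgrb2 and Tmem51 upward and Cd28 and Nrgn downward, which are not shown. Cmah has another window, at chr13:24414872-24415121, that held no match in these 250 bases and is not shown. Capitals mark a match to 1 of the 6 motifs on either strand. The Cmah window lies at chr13:24327154-24327403 (plus strand) and that of Ramp1 at chr1:91179572-91179821 (plus strand).
Cmah: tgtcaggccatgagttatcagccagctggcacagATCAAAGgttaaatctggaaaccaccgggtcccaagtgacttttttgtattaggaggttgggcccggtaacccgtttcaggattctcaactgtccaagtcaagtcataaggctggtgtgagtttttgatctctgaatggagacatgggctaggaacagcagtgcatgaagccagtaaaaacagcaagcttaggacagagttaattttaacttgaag
Ramp1: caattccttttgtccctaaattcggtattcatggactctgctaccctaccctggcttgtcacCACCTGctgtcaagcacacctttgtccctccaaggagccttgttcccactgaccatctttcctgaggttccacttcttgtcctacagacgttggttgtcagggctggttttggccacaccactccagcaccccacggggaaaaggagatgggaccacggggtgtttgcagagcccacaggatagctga
In Cmah the capitals are the reverse complement of the TCF/LEF letters, 216 bases before the start. In Ramp1 they are the E-box letters on the other strand, 188 bases before the start.

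Between groups other than control IEL the rule sets no direction, so 2 comparisons could be tested. KO and control IELp differ in genotype alone, per the labels. There 15 of the 50 genes rose and 8 fell, against 6.48% and 6.58% of the 14629 genes tested (adjusted p under 0.05 over all genes in edgeR's quasi-likelihood test). Among the 10000 genes with at least 5 CPM in the same 9 libraries, 7.51% rose and 6.25% fell. The median log2 fold change of the 50 genes was 0.04, against 0.01 in the 10000. Maged1, Adcy6, Mex3a, Colq and Mmrn2 rose by at least 2-fold, as did 1.37% of all tested genes, and 1 of the 50 genes fell by at least 2-fold, as did 1.49%. Together 23 of the 50 passed, against 13.1% of all tested genes. In 18 genes every KO IELp library lay above every control IELp library and in 13 below, where 12.9% and 16.8% of all tested genes did so. The count of 8 genes that fell became 5 when KO IELp replicate 2 was left out, and also 5 when it was replicate 3.

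**Figure D3:**
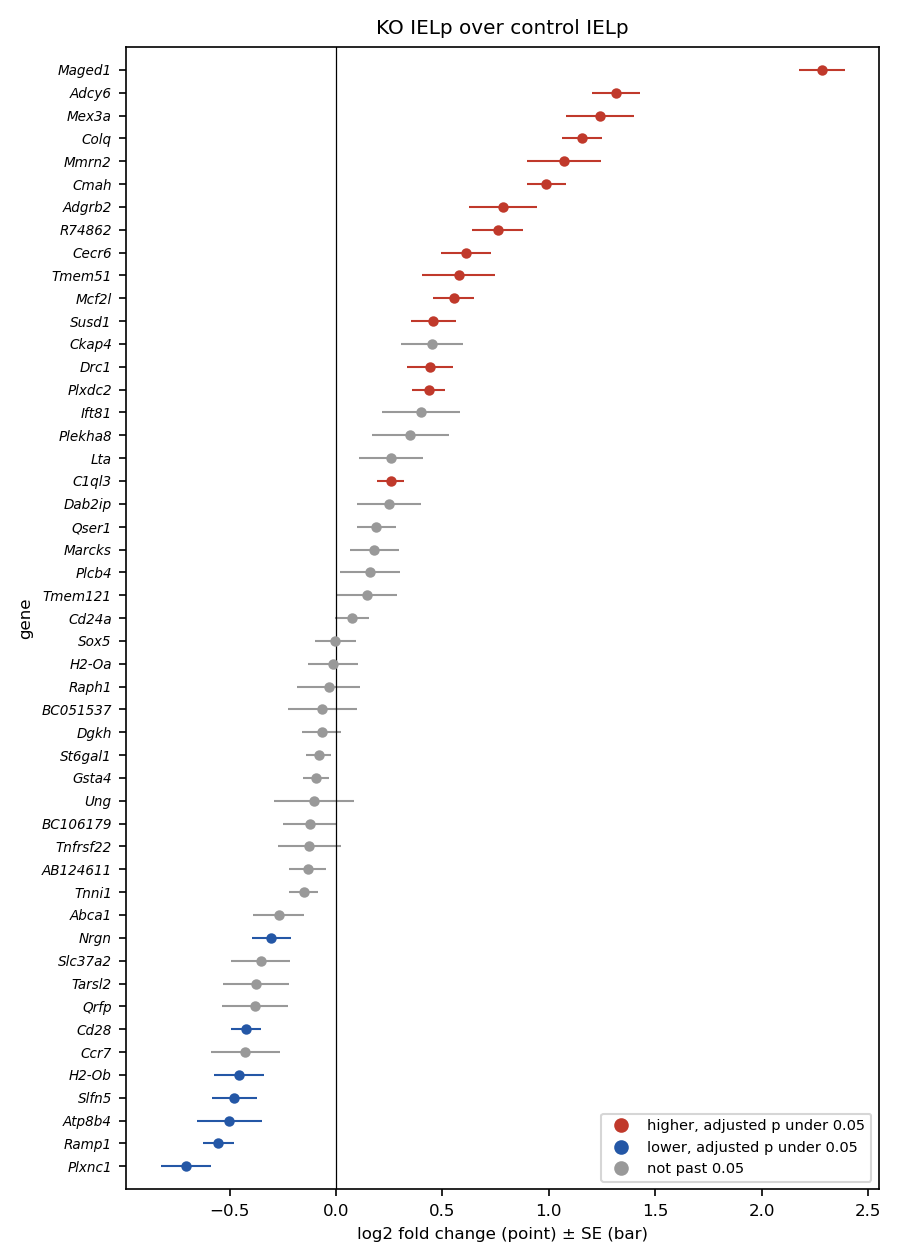
Points give the log2 fold change of 49 of the genes in KO over control IELp and bars its SE (n = 3 against 3 libraries), red for the 15 that rose, blue for the 7 that fell and grey for the others. Values run from -0.71 for Plxnc1 to 2.28 for Maged1.

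KO spleen cells and KO IELp share the genotype and differ in tissue and stage, and any difference in how IELp and CD8αα samples were handled cannot be told apart from these. Here 12 of the 50 genes were higher in the spleen and 27 lower, against 22.6% and 22.4% of the 14880 genes tested and 25.4% and 23.4% of the 10000 genes at 5 CPM or more (edgeR adjusted p under 0.05). Together 39 of the 50 passed, against 45% of all tested genes. At least 2-fold lower were 17 of the 50, against 7.65% of all tested genes, and at least 2-fold higher were 5, against 7.18%. The median log2 fold change of the 50 genes was -0.58, against 0.01 in the 10000. All KO spleen libraries lay above all KO IELp libraries in 12 of the 50 and below them in 30, where 20.4% and 36% of all tested genes did so. By the rule no gene could fall below 5 CPM in either group. Set against all 6 IELp libraries, the 3 KO spleen libraries lay above in 10 genes, below in 24 and overlapped them in 16.

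**Figure D4:**
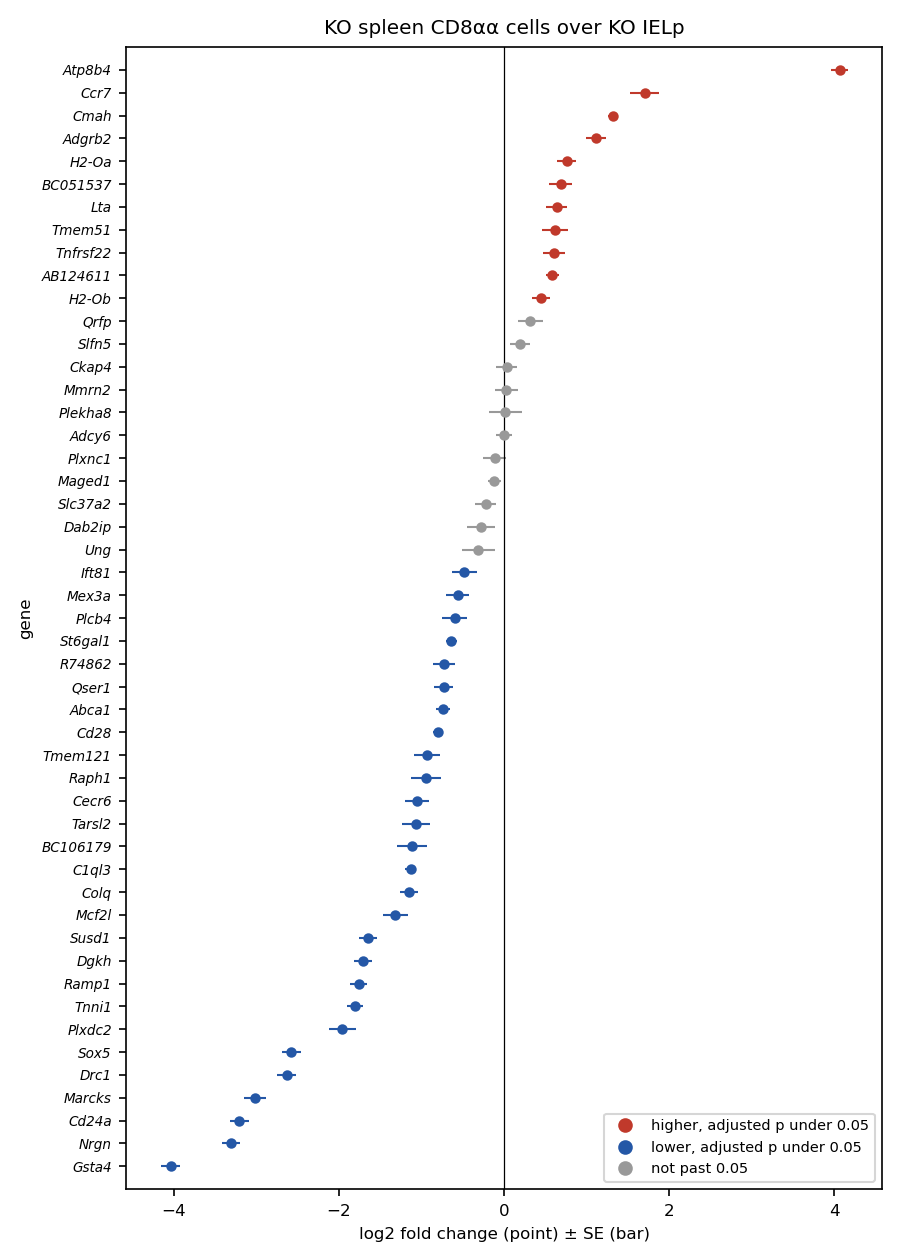
Points give the log2 fold change of 49 of the genes in KO spleen cells over KO IELp and bars its SE (n = 3 against 3 libraries), red for the 11 higher, blue for the 27 lower and grey for the others. The range runs from -4.04 for Gsta4 to 4.06 for Atp8b4.

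Surface receptors made up 9 of the 50 genes. In KO IELp 2 of them rose and 4 fell, and in KO spleen cells 4 were higher and 4 lower than in KO IELp. Ccr7 (chromosome 11, 99144196 to 99155077, minus strand) encodes the receptor that guides cells to the T cell zone of lymph nodes. The Ccr7 values in CPM were 16.3, 15.6 and 19.9 in control IELp, 9.64, 14.2 and 13.9 in KO IELp, 31.5, 35.5 and 47.8 in KO spleen cells and 0.184, 0 and 0.0543 in control IEL. All KO spleen libraries lay above all IELp libraries, and Ccr7 was 3.26-fold higher there than in KO IELp (edgeR adjusted p = 4.27e-06). Its KO IELp libraries lay below the control ones, but the difference did not pass (log2 fold change -0.43 ± 0.16 SE with an edgeR adjusted p of 0.108).

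Cd28 (chromosome 1, 60716800 to 60773359, plus strand) encodes a costimulatory receptor for B7 ligands. Levels of Cd28 in CPM were 255, 246 and 291 in control IELp, 202, 199.9 and 178 in KO IELp, 105, 102 and 103 in KO spleen cells and 0, 0.708 and 0.0543 in control IEL. The groups did not overlap, in the order control IELp, KO IELp, KO spleen cells and control IEL. Both tested steps passed, with a fall in KO IELp (log2 fold change -0.43 ± 0.07 SE with an edgeR adjusted p of 9.02e-04) and a further one to KO spleen cells (log2 fold change -0.80 ± 0.06 SE with an edgeR adjusted p of 2.89e-07). Control IEL 2 alone reached 0.708 CPM and the other two control IEL libraries lay near 0. Ramp1 (chromosome 1, 91179822 to 91225196, plus strand), a partner chain of the receptor for the neuropeptide CGRP, had the same order of groups. Ramp1 measured, in CPM, 99.3, 95.02 and 102 in control IELp, 66.1, 64.1 and 68.6 in KO IELp, 20.7, 16.6 and 16.97 in KO spleen cells and 0, 0 and 0.326 in control IEL. It fell in KO IELp (log2 fold change -0.55 ± 0.07 SE with an edgeR adjusted p of 1.15e-04) and was 3.39-fold lower in KO spleen cells than in KO IELp (edgeR adjusted p = 1.63e-08).

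Cd24a (chromosome 10, 43578284 to 43584265, plus strand) encodes heat-stable antigen, a surface protein of immature thymocytes. The Cd24a values in CPM were 65.7, 62.5 and 64.7 in control IELp, 64.9, 70.8 and 64.4 in KO IELp, 6.97, 5.98 and 7.22 in KO spleen cells and 0.123, 0 and 0.489 in control IEL. The IELp groups overlapped and KO spleen cells lay close to the limit of 5 CPM, 9.21-fold below KO IELp (edgeR adjusted p = 8.84e-11). Adgrb2 (chromosome 4, 129984870 to 130022633, plus strand), an adhesion G protein-coupled receptor, was highest in KO spleen cells. Levels of Adgrb2 in CPM were 12.96, 8.996 and 11.2 in control IELp, 19.2, 20.95 and 15.9 in KO IELp, 34.9, 36.8 and 40.4 in KO spleen cells and 0, 0 and 0 in control IEL. The 3 groups outside control IEL did not overlap, and Adgrb2 rose in KO IELp (log2 fold change 0.78 ± 0.16 SE with an edgeR adjusted p of 0.00421) and was higher still in KO spleen cells (log2 fold change 1.11 ± 0.12 SE with an edgeR adjusted p of 6.72e-06). Plxnc1 (chromosome 10, 94790866 to 94944835, minus strand), a plexin that binds semaphorin 7A, was lower in both KO groups than in control IELp. Plxnc1 measured, in CPM, 32.3, 26.5 and 33.7 in control IELp, 19.4, 17.9 and 18.5 in KO IELp, 13.8, 14.99 and 19.1 in KO spleen cells and 0.369, 0 and 0 in control IEL. It fell in KO IELp (log2 fold change -0.71 ± 0.12 SE with an edgeR adjusted p of 9.58e-04), while KO spleen cells overlapped KO IELp. Plxdc2, a plexin domain membrane protein, rose in KO IELp (log2 fold change 0.43, a call lost with all 12 libraries in 1 fit, edgeR adjusted p = 0.171) and was 3.88-fold lower in KO spleen cells than in KO IELp. Tnfrsf22, a decoy receptor for TRAIL whose close relatives lie beside it, did not pass in IELp (log2 fold change -0.13) and was higher in KO spleen cells (log2 fold change 0.61). Over the IELp libraries Plxdc2 spanned 51.9 to 74.3 CPM, against 13.1 to 23.7 CPM in KO spleen cells and at most 0.307 CPM in control IEL. For Tnfrsf22 the span was 20.7 to 32.2 CPM in IELp and 28.2 to 37.6 CPM in KO spleen cells, and control IEL reached 0.380 CPM.

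**Figure D5:**
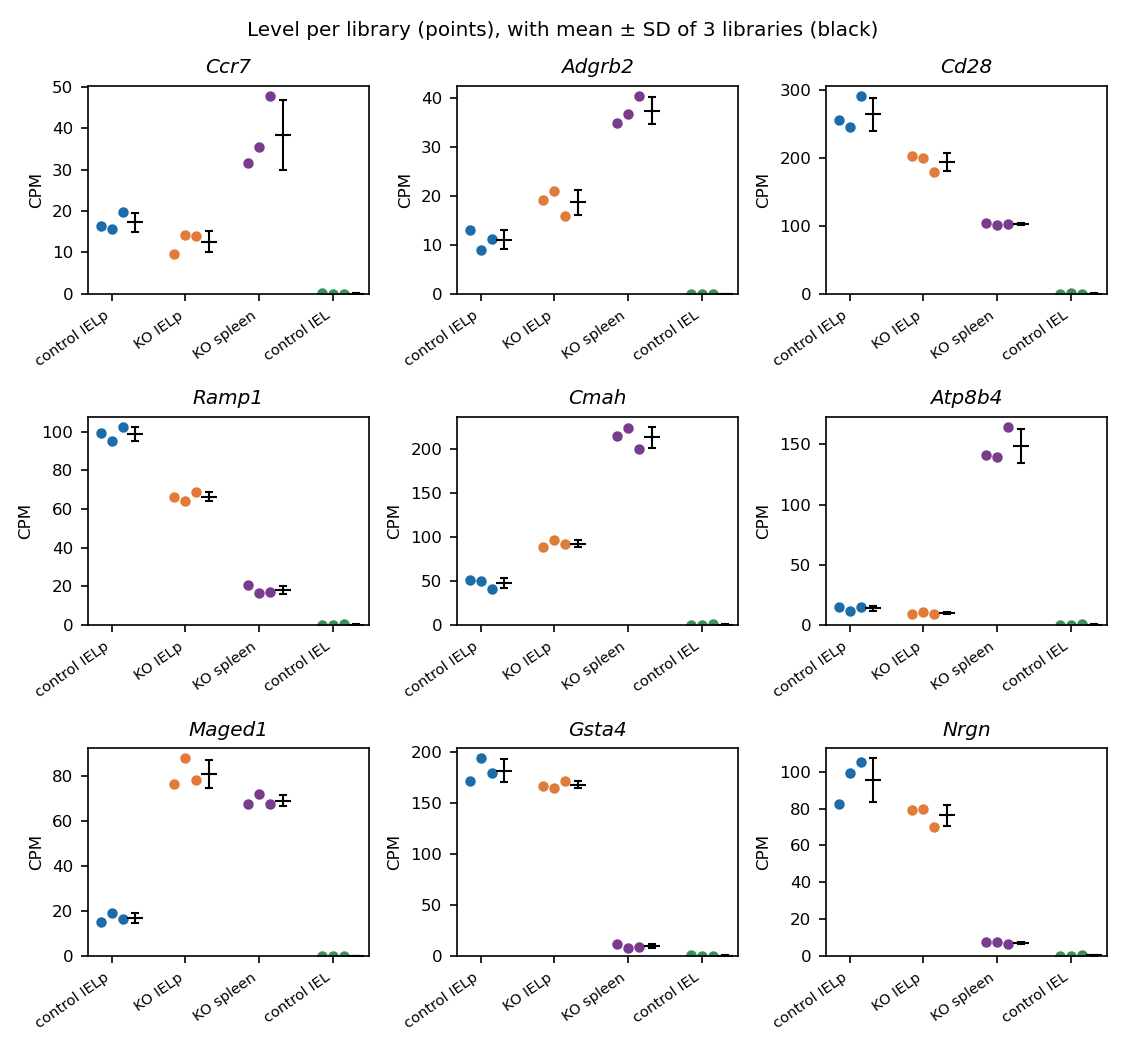
Points are the CPM of single libraries and black bars give a group's mean ± SD (n = 3), for 9 genes on linear axes that start at 0. Ccr7, Adgrb2, Cmah and Atp8b4 are highest in KO spleen cells, Cd28, Ramp1, Gsta4 and Nrgn lowest there among the groups outside control IEL, and Maged1 is high in both KO groups.

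Secreted and matrix proteins gave 5 genes, of which 3 rose in KO IELp, and 1 was higher and 2 lower in KO spleen cells. Colq (chromosome 14, 31523082 to 31591343, minus strand) encodes the collagen tail that anchors acetylcholinesterase. The Colq values in CPM were 42.7, 42.3 and 42.6 in control IELp, 84.5, 89.4 and 106 in KO IELp, 40.2, 33.7 and 43.3 in KO spleen cells and 0.492, 0 and 0.489 in control IEL. Only KO IELp stood apart, above both control IELp (log2 fold change 1.16 ± 0.09 SE with an edgeR adjusted p of 8.82e-07) and KO spleen cells (log2 fold change -1.15 ± 0.11 SE with an edgeR adjusted p of 1.74e-06). Mmrn2 (chromosome 14, 34375465 to 34404287, plus strand) encodes a multimerin of the extracellular matrix. Levels of Mmrn2 in CPM were 7.57, 6.41 and 10.02 in control IELp, 15.5, 18.9 and 14.98 in KO IELp, 15.1, 14.6 and 17.05 in KO spleen cells and 0.0614, 0 and 0 in control IEL. KO IELp and KO spleen cells overlapped, and both lay above control IELp. Its rise in KO IELp was 2.10-fold (edgeR adjusted p = 7.84e-04). C1ql3 (chromosome 2, 13003457 to 13011806, minus strand) encodes a secreted C1q-like protein. C1ql3 measured, in CPM, 108, 103 and 104 in control IELp, 122, 126 and 123 in KO IELp, 50.9, 54.6 and 50.995 in KO spleen cells and 0.0614, 0.322 and 0.380 in control IEL. It rose slightly in KO IELp (log2 fold change 0.26 ± 0.06 SE with an edgeR adjusted p of 0.0139) and was 2.19-fold lower in KO spleen cells. The rise was lost without control IELp replicate 2 or KO IELp replicate 2 and with all 12 libraries in 1 fit (adjusted p from 0.00220 to 0.0945 over its 13 alternatives). Lta (chromosome 17, 35203165 to 35205351, minus strand) encodes lymphotoxin α, a TNF family cytokine. The Lta values in CPM were 12.96, 10.3 and 10.4 in control IELp, 12.9, 14.6 and 12.1 in KO IELp, 17.7, 19.1 and 20.3 in KO spleen cells and 0.737, 0.579 and 0.978 in control IEL. Its highest control IEL value was the nearest of the 50 to the limit of 1 CPM, and KO spleen cells lay above KO IELp (log2 fold change 0.64 ± 0.13 SE with an edgeR adjusted p of 0.00123). Qrfp, a neuropeptide of the RFamide family, passed in neither comparison (log2 fold change -0.38 in KO IELp and 0.32 in KO spleen cells). Qrfp ranged from 9.99 to 17.2 CPM over the 6 IELp libraries and from 11.4 to 14.8 CPM in KO spleen cells, with at most 0.380 CPM in control IEL.

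H2-Oa (chromosome 17, 34092340 to 34095234, plus strand) and H2-Ob (chromosome 17, 34238903 to 34254414, plus strand) encode the chains of H2-O, which restrains peptide loading onto MHC class II. Levels of H2-Oa in CPM were 27.4, 33.1 and 26.4 in control IELp, 31.3, 27.8 and 26.1 in KO IELp, 43.9, 39.2 and 50.5 in KO spleen cells and 0.184, 0.386 and 0.435 in control IEL. H2-Ob measured, in CPM, 27.7, 29.99 and 23.7 in control IELp, 20.5, 18.3 and 19.8 in KO IELp, 23.01, 26.2 and 24.8 in KO spleen cells and 0, 0.193 and 0.0543 in control IEL. Both were higher in KO spleen cells than in KO IELp (log2 fold change 0.76 ± 0.11 SE with an edgeR adjusted p of 1.12e-04 for H2-Oa, and log2 fold change 0.45 ± 0.11 SE with an edgeR adjusted p of 0.00507 for H2-Ob). H2-Ob fell in KO IELp (log2 fold change -0.46 ± 0.12 SE with an edgeR adjusted p of 0.0191), and H2-Oa did not pass (log2 fold change -0.01). The H2-Ob call was lost without control IELp replicate 2, KO IELp replicate 2 or KO IELp replicate 3 (adjusted p from 0.00712 to 0.0955 over its 13 alternatives). Limma on log2(CPM + 1) and all 12 libraries in 1 fit also lost it. The antisense transcript BC051537 over H2-Oa was also higher in KO spleen cells (log2 fold change 0.68) and did not pass in IELp (log2 fold change -0.07). Over the IELp libraries BC051537 spanned 10.5 to 14.9 CPM, against 16.04 to 19.3 CPM in KO spleen cells and at most 0.217 CPM in control IEL.

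B cell transcripts moved with the spleen. Summed over 12 B cell markers, levels were 104 to 128 CPM in KO spleen cells, 20.6 to 27.4 CPM in IELp and 37.5 to 64.0 CPM in control IEL. Most of the sums in control IEL and IELp was Cd79b alone, at 34.1 to 61.1 CPM and 16.2 to 21.5 CPM. In KO spleen cells Cd79b was at 57.9 to 68.9 CPM. Ms4a1, which encodes CD20, measured 11.8 to 13.7 CPM in KO spleen cells and was at 0 in the 9 other libraries. In control IEL 6 of the 12 markers were at 0, among them Ms4a1, Pax5, Ebf1, Fcer2a and Spib. H2-Oa, H2-Ob, Ccr7, Lta, Cd24a and St6gal1 are also expressed by B cells, and the part of B cell RNA in their KO spleen values was not tested. The sort for TCRβ and CD8α would remove B cells, and dendritic cells as well through TCRβ. In the IELp libraries Ms4a1, Pax5 and Ebf1 were each at most 0.158 CPM, but other markers of the list were present. Vpreb3 was at 1.91 to 3.00 CPM and Cd79a at 0.442 to 1.02 CPM over both genotypes. Blk was at 0.941 to 2.87 CPM in control IELp and 0.396 to 0.738 CPM in KO IELp. The sum over the 12 markers was 25.2 to 27.4 CPM in controls against 20.6 to 23.5 CPM in KO IELp. Summed over 11 dendritic cell and MHC class II genes, levels were 42.4 to 49.4 CPM in control IELp, 30.0 to 33.5 CPM in KO IELp, 324 to 488 CPM in KO spleen cells and 281 to 392.3 CPM in control IEL. Its members differed between the CD8αα groups. Itgax was at 229 to 343 CPM in control IEL and 18.6 to 20.3 CPM in KO spleen cells, and Cd74 at 6.76 to 8.58 CPM in control IEL and 155 to 225 CPM in KO spleen cells. H2-Ab1 was at 7.06 to 7.80 CPM in control IEL and 49.3 to 94.99 CPM in KO spleen cells. Siglech and Clec9a were each at most 0.702 CPM in all libraries. Within IELp, Bst2 was at 28.0 to 30.7 CPM in controls and 17.3 to 21.1 CPM in KO. Cd74 was at 5.38 to 7.78 CPM in control IELp and 2.47 to 3.23 CPM in KO IELp. Xcr1 went the other way, at 2.59 to 3.17 CPM and 3.17 to 5.27 CPM. H2-Aa, H2-Ab1 and H2-Eb1 were each at most 1.47 CPM in IELp. The part of these transcripts in the fall of H2-Ob in KO IELp and in the spleen values of H2-Ob, Ccr7 and Lta was not tested.

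Proteins of glycans, lipids and metabolism gave 7 genes. In KO IELp 1 rose and 1 fell, and in KO spleen cells 2 were higher and 3 lower. St6gal1 (chromosome 16, 23224740 to 23360350, plus strand) adds α2,6-linked sialic acid to glycoproteins, and Cmah (chromosome 13, 24327404 to 24477377, plus strand) hydroxylates the sialic acid Neu5Ac to Neu5Gc. The St6gal1 values in CPM were 179.5, 171 and 188 in control IELp, 163, 168 and 169 in KO IELp, 99.1, 90.5 and 108 in KO spleen cells and 0.369, 0 and 0.706 in control IEL. KO IELp lay just below control IELp (log2 fold change -0.08, not past the threshold), and KO spleen cells were 1.56-fold below KO IELp (edgeR adjusted p = 5.38e-06). Levels of Cmah in CPM were 50.7, 50.1 and 40.9 in control IELp, 88.7, 96.7 and 91.7 in KO IELp, 215, 224 and 200.3 in KO spleen cells and 0, 0 and 0.652 in control IEL. Cmah went the other way at both steps without overlap, with a rise in KO IELp (log2 fold change 0.99 ± 0.09 SE with an edgeR adjusted p of 4.14e-06) and a higher level in KO spleen cells (log2 fold change 1.32 ± 0.06 SE with an edgeR adjusted p of 2.36e-09).

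Atp8b4 (chromosome 2, 126320973 to 126500674, minus strand) belongs to the P4-ATPase family of lipid flippases. Atp8b4 measured, in CPM, 15.01, 11.6 and 14.9 in control IELp, 9.18, 10.5 and 9.12 in KO IELp, 141, 139.7 and 165 in KO spleen cells and 0, 0.193 and 0.380 in control IEL. KO spleen cells stood 16.7-fold above KO IELp (edgeR adjusted p = 2.86e-12). The fall in KO IELp (log2 fold change -0.50, edgeR adjusted p = 0.0432) was lost in 10 of its 13 alternatives (adjusted p from 0.0289 to 0.140). It was lost when any library but control IELp replicate 2 was left out. DESeq2, both limma fits, the replicate block and all 12 libraries in 1 fit also lost it. Gsta4 (chromosome 9, 78182774 to 78209349, plus strand) encodes a glutathione transferase that clears products of lipid peroxidation. The Gsta4 values in CPM were 171, 194 and 179.9 in control IELp, 167, 165 and 172 in KO IELp, 11.8, 7.89 and 8.41 in KO spleen cells and 0.369, 0.322 and 0.272 in control IEL. Of the 50 genes it had the lowest ratio of KO spleen cells to KO IELp (log2 fold change -4.04 ± 0.12 SE with an edgeR adjusted p of 1.84e-11), and the IELp groups overlapped. Abca1, a cholesterol exporter, was 1.67-fold lower in KO spleen cells (edgeR adjusted p = 1.32e-05) and did not pass in IELp (log2 fold change -0.27). Slc37a2, a sugar phosphate transporter, and Plekha8, a glycolipid transfer protein, passed in neither comparison (log2 fold changes -0.36 and 0.35 in KO IELp, -0.22 and 0.02 in KO spleen cells). For Abca1 the span was 61.5 to 98.1 CPM in IELp and 34.2 to 38.1 CPM in KO spleen cells, and control IEL reached 0.257 CPM. Slc37a2 ranged from 19.7 to 30.4 CPM over the 6 IELp libraries and from 15.3 to 18.5 CPM in KO spleen cells, with at most 0.965 CPM in control IEL. Over the IELp libraries Plekha8 spanned 7.16 to 12.8 CPM, against 7.31 to 12.2 CPM in KO spleen cells and at most 0.109 CPM in control IEL.

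Signalling proteins gave 9 genes. In KO IELp 3 rose and 1 fell, and 6 were lower in KO spleen cells than in KO IELp. Maged1 (chromosome X, 94535474 to 94542143, minus strand), an adaptor of the MAGE family, had the largest rise in KO IELp of the 50 genes. Levels of Maged1 in CPM were 14.9, 19.1 and 16.4 in control IELp, 76.5, 87.9 and 78.001 in KO IELp, 67.4, 71.7 and 67.5 in KO spleen cells and 0, 0 and 0 in control IEL. Both KO groups lay above control IELp without overlap, KO spleen cells lay below KO IELp but the difference did not pass, control IEL had no counts, and the rise in KO IELp was 4.86-fold (log2 fold change 2.28 ± 0.11 SE with an edgeR adjusted p of 4.16e-09). Adcy6 (chromosome 15, 98589973 to 98610076, minus strand), an adenylyl cyclase that makes cAMP, was also higher in both KO groups than in control IELp. Adcy6 measured, in CPM, 15.3, 12.6 and 15.1 in control IELp, 36.1, 35.4 and 33.8 in KO IELp, 29.7, 32.7 and 35.1 in KO spleen cells and 0, 0 and 0.163 in control IEL. It rose in KO IELp (log2 fold change 1.32 ± 0.11 SE with an edgeR adjusted p of 1.91e-06) and KO spleen cells overlapped KO IELp. Mcf2l (chromosome 8, 12873806 to 13020905, plus strand) encodes a guanine nucleotide exchange factor. The Mcf2l values in CPM were 36.6, 36.2 and 34.6 in control IELp, 46.6, 56.1 and 52.3 in KO IELp, 14.6, 24.3 and 18.8 in KO spleen cells and 0, 0.193 and 0 in control IEL. KO IELp was highest (log2 fold change 0.55 ± 0.10 SE with an edgeR adjusted p of 0.00124) and KO spleen cells lowest outside control IEL (log2 fold change -1.32 ± 0.15 SE with an edgeR adjusted p of 1.34e-05). The rise in KO IELp was lost when all 12 libraries were fitted together (edgeR adjusted p = 0.0551).

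Nrgn (chromosome 9, 37544492 to 37552904, minus strand) encodes neurogranin, which binds calmodulin, and Marcks (chromosome 10, 37133375 to 37138920, minus strand) a membrane-bound substrate of protein kinase C. Levels of Nrgn in CPM were 82.2, 99.4 and 105 in control IELp, 79.2, 79.8 and 69.8 in KO IELp, 7.47, 7.41 and 6.33 in KO spleen cells and 0.184, 0.193 and 0.326 in control IEL. Marcks measured, in CPM, 60.5, 50.9 and 72.1 in control IELp, 70.7, 60.4 and 73.1 in KO IELp, 7.72, 6.51 and 9.31 in KO spleen cells and 0.246, 0.386 and 0.652 in control IEL. In both genes KO spleen cells lay just above the limit of 5 CPM, 9.90-fold and 8.11-fold below KO IELp (edgeR adjusted p = 5.97e-11 and edgeR adjusted p = 9.44e-10). Nrgn also fell in KO IELp (log2 fold change -0.30, edgeR adjusted p = 0.0441), a call lost in 9 of its 13 alternatives (adjusted p from 0.00679 to 0.183). It was lost when any library but control IELp replicate 1 was left out. Both limma fits, the replicate block and all 12 libraries in 1 fit also lost it. Dgkh, a diacylglycerol kinase, was 3.27-fold lower in KO spleen cells (edgeR adjusted p = 5.62e-08). The Dgkh values in CPM were 148, 129.6 and 110.1 in control IELp, 119, 129.9 and 116 in KO IELp, 33.5, 40.8 and 28.1 in KO spleen cells and 0.492, 0.322 and 0 in control IEL. Plcb4, a phospholipase C, and Raph1, which encodes lamellipodin, were also lower there (log2 fold changes -0.60 and -0.95). Dab2ip, a GTPase-activating protein for Ras, passed in neither comparison (log2 fold change 0.25 in KO IELp and -0.28 in KO spleen cells). For Plcb4 the span was 12.2 to 17.04 CPM in IELp and 8.37 to 10.6 CPM in KO spleen cells, and control IEL reached 0.129 CPM. Raph1 ranged from 11.3 to 15.5 CPM over the 6 IELp libraries and from 5.31 to 8.19 CPM in KO spleen cells, with at most 0.614 CPM in control IEL. Over the IELp libraries Dab2ip spanned 7.92 to 10.1 CPM, against 6.67 to 9.23 CPM in KO spleen cells and at most 0.386 CPM in control IEL.

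Among 6 nuclear and RNA-linked genes, 1 rose and 1 fell in KO IELp, and 4 were lower in KO spleen cells than in KO IELp. Sox5 (chromosome 6, 143828425 to 144781977, minus strand) encodes an HMG box transcription factor. Levels of Sox5 in CPM were 72.8, 69.6 and 62.5 in control IELp, 58.3, 70.1 and 72.5 in KO IELp, 11.1, 10.5 and 9.38 in KO spleen cells and 0.184, 0.193 and 0.489 in control IEL. Its IELp groups overlapped with nearly equal means, and KO spleen cells were 5.96-fold lower (edgeR adjusted p = 1.47e-09). Mex3a (chromosome 3, 88532395 to 88541396, plus strand) encodes an RNA-binding protein. Mex3a measured, in CPM, 6.55, 9.41 and 8.25 in control IELp, 19.1, 20.8 and 16.6 in KO IELp, 12.8, 11.8 and 10.7 in KO spleen cells and 0.737, 0.193 and 0.163 in control IEL. It rose in KO IELp (log2 fold change 1.24 ± 0.16 SE with an edgeR adjusted p of 9.14e-05), and KO spleen cells lay between the IELp groups. Slfn5 (chromosome 11, 82951349 to 82964840, plus strand), of the Schlafen family, fell in KO IELp (log2 fold change -0.48 ± 0.11 SE with an edgeR adjusted p of 0.00727). The Slfn5 values in CPM were 63.5, 63.5 and 60.1 in control IELp, 44.4, 36.9 and 50.8 in KO IELp, 41.7, 48.5 and 50.1 in KO spleen cells and 0.922, 0.322 and 0.489 in control IEL. KO spleen cells overlapped KO IELp and control IEL 1 lay close to the limit of 1 CPM. Qser1, a nuclear protein, and Tarsl2, a threonyl-tRNA synthetase-like protein, were lower in KO spleen cells (log2 fold changes -0.73 and -1.07). For Qser1 the span was 35.6 to 43.9 CPM in IELp and 20.2 to 27.5 CPM in KO spleen cells, and control IEL reached 0.579 CPM. Tarsl2 ranged from 11.6 to 19.6 CPM over the 6 IELp libraries and from 5.43 to 6.82 CPM in KO spleen cells, with at most 0.272 CPM in control IEL. Ung, the uracil-DNA glycosylase of base excision repair, passed in neither comparison (log2 fold change -0.10 in KO IELp and -0.31 in KO spleen cells). Its values were 7.88 to 10.8 CPM in control IELp and 0.450 to 0.761 CPM in control IEL.

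Genes of cilia, the cytoskeleton and contraction numbered 4, of which 1 rose in KO IELp and 3 were lower in KO spleen cells. Drc1 (chromosome 5, 30281388 to 30366695, plus strand) encodes a subunit of the dynein regulatory complex of motile cilia, and Tnni1 (chromosome 1, 135779434 to 135810989, plus strand) troponin I of slow muscle fibres. Levels of Drc1 in CPM were 39.1, 41.7 and 52.4 in control IELp, 59.6, 56.2 and 61.9 in KO IELp, 8.57, 10.1 and 7.67 in KO spleen cells and 0.307, 0.193 and 0.109 in control IEL. Tnni1 measured, in CPM, 186, 185 and 196 in control IELp, 185, 164 and 153 in KO IELp, 45.6, 49.03 and 37.6 in KO spleen cells and 0.184, 0.0643 and 0.217 in control IEL. Both were lower in KO spleen cells than in KO IELp, 6.20-fold (edgeR adjusted p = 1.09e-09) and 3.50-fold (edgeR adjusted p = 8.19e-09). Drc1 also rose in KO IELp (log2 fold change 0.44, edgeR adjusted p = 0.0128). That call was lost without control IELp replicate 2, KO IELp replicate 1 or KO IELp replicate 3 and with limma on log2(CPM + 1) (adjusted p from 1.46e-04 to 0.0701 over its 13 alternatives). Ckap4 (chromosome 10, 84526305 to 84534062, minus strand), a membrane protein of the endoplasmic reticulum that binds microtubules, passed in neither comparison. The Ckap4 values in CPM were 11.4, 13.99 and 10.5 in control IELp, 17.1, 16.8 and 14.7 in KO IELp, 14.5, 15.9 and 15.6 in KO spleen cells and 0, 0 and 0 in control IEL. KO IELp lay above control IELp (log2 fold change 0.45 ± 0.14 SE with an edgeR adjusted p of 0.0539) and control IEL had no counts. Ift81, a protein of intraflagellar transport, was lower in KO spleen cells (log2 fold change -0.48). That call was lost without KO IELp replicate 1 or 3 or KO spleen replicate 1 or 3 and with all 12 libraries in 1 fit (adjusted p from 0.00624 to 0.0834 over its 13 alternatives). Over the IELp libraries Ift81 spanned 10.5 to 18.3 CPM, against 9.53 to 13.5 CPM in KO spleen cells and at most 0.307 CPM in control IEL.

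The remaining genes were non-coding or have no role given here. R74862 (chromosome 7, 143021784 to 143053686, minus strand), a processed transcript, rose in KO IELp (log2 fold change 0.76 ± 0.12 SE with an edgeR adjusted p of 6.15e-04). Levels of R74862 in CPM were 13.6, 13.9 and 14.7 in control IELp, 23.5, 25.3 and 21.5 in KO IELp, 14.1, 13.9 and 11.02 in KO spleen cells and 0, 0 and 0.0543 in control IEL. KO spleen cells overlapped control IELp, below KO IELp (edgeR adjusted p = 6.56e-04). BC106179 (chromosome 16, 23220656 to 23225484, minus strand) was lower in KO spleen cells (log2 fold change -1.12 ± 0.18 SE with an edgeR adjusted p of 2.63e-04), and reads of St6gal1 may be part of its counts. BC106179 measured, in CPM, 18.97, 22.6 and 20.7 in control IELp, 20.3, 19.6 and 16.5 in KO IELp, 10.5, 6.72 and 6.63 in KO spleen cells and 0, 0 and 0 in control IEL. The IELp groups overlapped. AB124611 (chromosome 9, 21526176 to 21545333, plus strand) was higher in KO spleen cells than in KO IELp (log2 fold change 0.59 ± 0.08 SE with an edgeR adjusted p of 5.86e-05). The AB124611 values in CPM were 52.2, 51.7 and 47.2 in control IELp, 43.8, 45.6 and 46.3 in KO IELp, 66.6, 58.8 and 63.2 in KO spleen cells and 0, 0.0643 and 0 in control IEL. Its control IEL libraries held 1 count in all. Cecr6, Susd1 and Tmem51 rose in KO IELp (log2 fold changes 0.61, 0.46 and 0.58). Of these Tmem51 was the weakest call, lost in 10 of its 13 alternatives (adjusted p from 0.0339 to 0.278). It was lost when any library but control IELp replicate 3 was left out. DESeq2, both limma fits, the replicate block and all 12 libraries in 1 fit also lost it. In KO spleen cells Cecr6, Susd1 and Tmem121 were lower and Tmem51 higher than in KO IELp (log2 fold changes -1.05, -1.65, -0.93 and 0.62). The Tmem51 call was lost there with all 12 libraries in 1 fit. For Cecr6 the span was 22.2 to 38.9 CPM in IELp and 14.1 to 21.4 CPM in KO spleen cells, and control IEL reached 0.706 CPM. Susd1 ranged from 30.05 to 46.96 CPM over the 6 IELp libraries and from 12.2 to 14.6 CPM in KO spleen cells, with at most 0.272 CPM in control IEL. Over the IELp libraries Tmem51 spanned 5.76 to 10.6 CPM, against 12.2 to 14.4 CPM in KO spleen cells and at most 0.489 CPM in control IEL. For Tmem121 the span was 13.2 to 18.5 CPM in IELp and 7.17 to 8.15 CPM in KO spleen cells, and control IEL reached 0.123 CPM.

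Of the 50 genes 4 were in lists of T cell programmes, which were chosen with earlier results of these data known. Of 38 genes of naive and recirculating T cells, 30 were at 5 CPM or more in the 9 libraries. Of those 30, 4 lay under 1 CPM in control IEL, Ccr7, Cd28 and Ramp1 among them, while 4 peaked between 1 and 5 CPM and 22 reached 5 CPM or more in at least 1 control IEL library. For scale, 10000 tested genes were at 5 CPM or more in the 9 libraries, and 58 genes met the limits before names were left out. In KO IELp 13 of 37 tested genes of the list fell and 5 rose, and in KO spleen cells 16 of 36 were higher and 9 lower than in KO IELp (edgeR adjusted p under 0.05). Beside these and the list counts that follow stand the shares of all tested genes, of which 6.58% fell and 6.48% rose in KO IELp and 22.6% were higher and 22.4% lower in KO spleen cells. The median log2 fold changes of the naive and recirculating list were -0.27 and 0.14. Of 31 measured genes of egress, adhesion and migration, 20 were at 5 CPM or more and 2 were members, Ccr7 among them. In KO IELp 7 of 25 tested fell and 3 rose, and in KO spleen cells 23 of 30 were higher and 6 lower. Cd28 was the 1 member among 39 genes of T cell receptor signals and costimulation, of which 32 of the 35 expressed at 5 CPM or more also reached that level in control IEL. In that list 9 of 38 tested genes fell and 6 rose in KO IELp, and 18 of 39 were higher and 11 lower in KO spleen cells.

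Other programmes gave no member. At 5 CPM or more in the 9 libraries were 14 genes of the Notch, Wnt and E protein pathways, 24 cytokine receptor and signal genes, 34 transcription factors of early T cell development and 35 cell cycle genes, and none of them lay under 1 CPM in all control IEL libraries. In KO IELp 21 of 38 tested cell cycle genes fell (6.58% of all tested genes), and 36 of 38 were lower in KO spleen cells than in KO IELp (22.4% of all tested genes). For the transcription factors 7 of 42 rose and 7 fell in KO IELp, and 17 of 42 were higher and 20 lower in KO spleen cells. For the cytokine receptor list 7 of 33 rose and 7 fell, and 24 of 34 were higher and 3 lower. For the Notch, Wnt and E protein list 3 of 23 rose and 6 fell, and 7 of 22 were higher and 12 lower. In control IEL 5 of the cell cycle genes, 3 of the transcription factors and 2 of the pathway genes peaked between 1 and 5 CPM. Over 11 markers of double-positive thymocytes the sums were 74.7 to 87.0 CPM in IELp, 49.1 to 57.5 CPM in KO spleen cells and 46.2 to 53.5 CPM in control IEL, of which Mns1 alone made up 44.6 to 52.5 CPM. Without Mns1, which was left out after its values were seen, the sums were 35.1 to 50.01 CPM in IELp, 14.2 to 20.5 CPM in KO spleen cells and 0.772 to 1.58 CPM in control IEL. In control IEL 6 of the 11, Dntt, Rag1, Rag2, Arpp21, Ptcra and Slc7a11, were at 0. The part of thymocyte or epithelial RNA in the values of the 50 genes was not tested.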

How the data were processed

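RNA was extracted with the RNeasy Plus Micro kit, amplified with the SMARTer Ultra Low kit, made into Nextera XT libraries and sequenced as 76 bp pairs, per the labels' protocols. The submitters' processing notes name bcl2fastq 2.17, Trimmomatic, STAR, HTSeq, DESeq2 and the mm10 build. Which annotation and strand setting were used is not given in the sources used here. The authors deposited a table of raw read counts per gene and a second table whose values equalled the CPM of those gene counts to within 8.12e-05. Summary rows that name no gene held 58.8 to 61.0% of the reads in the count file and stayed out of all fits, and 27 symbols were stored as dates.

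The rule used the CPM table. The floor for fold differences was 3 counts over the 3 control IEL libraries together. Within a single control IEL library, 3 counts equal 0.163 to 0.193 CPM. Counts were tested with edgeR 4.0.16 in R 4.3.3 (filterByExpr, TMM, quasi-likelihood test, 2-sided, 3 against 3 libraries), with p-values adjusted by Benjamini-Hochberg over all genes tested. Alternatives were RLE factors, DESeq2 1.42.0, no filter, limma 3.58.1 on log2(CPM + 1) and log2(CPM + 0.1), all 12 libraries in 1 fit, the replicate number as a block and each library left out. The scripts were tested on simulated data. The members, gene lists and roles were chosen with earlier results of these data known. Values in every library are given for the 8 highest members, up to 8 members per direction and comparison by adjusted p, members with no count in control IEL and members of a gene list, and the rest by role. Of the 50 members 1 enters the counts but is not reported here by name or drawn.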

Additional observations from a re-analysis of the deposited data

How the results depend on the processing

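The set of genes depended on the limits. It held 110 genes with control IEL under 2 CPM, 87 with at least 3 CPM elsewhere, 28 with at least 10 CPM elsewhere and 37 with control IEL under 0.5 CPM, while TMM or RLE scaling gave 48, of which 47 were among the 50. Leaving out 1 library gave 50 to 69 genes, the most without control IEL replicate 3. In KO IELp the count that fell was 5 in place of 8 with all 12 libraries in 1 fit and 5 with limma on log2(CPM + 1), and ranged from 5 to 8 with 1 library left out, at 5 without KO IELp replicate 2 or KO IELp replicate 3. The count that rose was 11 in place of 15 with all 12 libraries in 1 fit and ranged from 13 to 15 with 1 library left out. Of the 23 calls 15 passed in all 13 alternatives, and no direction changed in 299 values. In KO spleen cells 12 genes were higher and 26 to 27 lower with 1 library left out, and 37 of 39 calls passed in all alternatives. Tmem51 lost its call there with all 12 libraries in 1 fit (edgeR adjusted p = 0.0860). Over all genes, limma on log2(CPM + 1) shifted the split between KO spleen cells and KO IELp from 3370 higher and 3330 lower to 2553 and 4343.

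Whether replicate numbers pair the samples was not settled. Deviations of same-numbered libraries correlated at -0.09, 0.01 and -0.05 for IELp and at 0.01, 0.05 and 0.07 for KO spleen cells and KO IELp across 11162 genes. Between differently numbered libraries the correlations ran from -0.08 to 0.12 and from -0.09 to 0.05. Deviations from a mean of 3 libraries are too few and too noisy to exclude pairing. With the replicate block, 14 genes rose and 6 fell in KO IELp, and 12 were higher and 27 lower in KO spleen cells. Depth limits the control IEL values, since a library value under 0.163 CPM is fewer than 3 counts.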

Other observations

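The 8 genes left out by name are reported here as values. Gm37811, which overlaps C1ql3, lay between 116 and 131 CPM in control IELp, between 147 and 150.3 CPM in KO IELp, between 51.1 and 55.3 CPM in KO spleen cells and between 0.129 and 0.543 CPM in control IEL. Gm43352 lay between 127 and 139.6 CPM in control IELp, between 81.5 and 88.7 CPM in KO IELp and between 35.2 and 37.5 CPM in KO spleen cells. Gm26735 lay between 73.6 and 101.7 CPM over the 6 IELp libraries and between 11.2 and 13.5 CPM in KO spleen cells. A430093F15Rik lay between 48.4 and 58.1 CPM in IELp and between 21.4 and 24.8 CPM in KO spleen cells. Gm26577 and Gm44722 were also lower in every KO spleen library than in every IELp library. 2510009E07Rik and Gm42967 overlapped between KO spleen cells and IELp.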
